A study of Mus musculus with 9 samples.

Results

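The genes described here are 8 cyclins of the cell cycle: the D-type cyclins Ccnd1, Ccnd2 and Ccnd3, the E-type cyclins Ccne1 and Ccne2, the A-type cyclin Ccna2 and the B-type cyclins Ccnb1 and Ccnb2. They were taken by gene symbol, and every bead-array probe paired with one of them in the platform annotation was used. This gave 11 of 25697 probes, for 7 of the 8 genes: 3 probes for Ccnd1, 3 for Ccnd3 and 1 each for Ccnd2, Ccne1, Ccne2, Ccna2 and Ccnb2. Ccnb1 had no probe paired with it and was not analysed here. Signals were measured in ntESCs of the mouse, embryonic stem cells derived after a somatic nucleus was put into an enucleated egg. Terc encodes the telomerase RNA, and its genotype was Terc+/+, Terc+/- or Terc-/-, with 3 of the 9 arrays each. All groups were of C57BL/6 strain and were grown without serum, with LIF, on embryonic fibroblasts stopped by mitomycin-C, which were taken off before RNA extraction. The labels call the 3 samples of a genotype biological repeats without saying whether these were separate lines or separate cultures, so the p-values measure the spread between these samples, part of which may be technical.

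Cyclins are the regulatory subunits that switch on cyclin-dependent kinases (CDKs) and pick their substrates. D-type cyclins pair with Cdk4 and Cdk6, respond to growth signals and start the phosphorylation of the retinoblastoma protein; E-type cyclins pair with Cdk2 at the entry into S phase; cyclin A2 acts with Cdk2 and Cdk1 through S and G2 phase; B-type cyclins drive mitosis with Cdk1. Mouse embryonic stem cells are known for a short G1 phase with high activity of cyclin E and Cdk2.

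The values were log2 signals from 5.11 to 14.8 over all arrays, with medians over all probes of 5.94. Pairs of arrays had Pearson's r between 0.950 and 0.995 over the probes, which do not replicate one another. No probe was paired with Terc (0 probes), so the genotypes rest on the labels. All 17 measured embryonic stem cell markers had means above 6, with Pou5f1 between 11.13 and 12.70. Of the markers of other lineages, means were under 6 for 5 of 6 mesoderm, 4 of 6 neural, 3 of 9 endoderm and 2 of 7 trophoblast markers. Fibroblast markers were present, with 38 of 39 above 6 and only Postn below. A fibroblast score, the mean deviation of these 39 markers from their means over the arrays, ran from -1.20 to 0.94 in Terc+/+, from -0.86 to 0.86 in Terc+/- and from -0.22 to 1.17 in Terc-/-. Its lowest value was that of Terc+/+ replicate 3, an array that stood apart: it held the highest or the lowest value of 45.0% of all probes (22.9% highest, 22.0% lowest) and of 8 of the 11 cyclin probes (3 highest, 5 lowest). The trophoblast score was also highest there, at 0.75, against -0.23 to 0.071 on the other arrays. Over the arrays, its markers Krt8 and Krt18 ranged from 6.72 to 9.44 and from 6.03 to 8.50. Cdx2, Elf5 and Gata3 reached at most 6.18, 5.60 and 6.31, and Krt7 and Tfap2c 6.84 and 11.82. The score is thus named for its list and does not establish a lineage.

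None of the 11 cyclin probes passed the test in any comparison of genotypes (0 of 11 at an adjusted p under 0.05 with limma, over all probes). The share of all probes called was 0.0389% in Terc-/- against Terc+/+, 0.00% in Terc+/- against Terc+/+, 0.00% in Terc-/- against Terc+/- and 0.148% in both mutant genotypes against Terc+/+. An unadjusted p under 0.05 was reached by 3, 2, 1 and 4 of the 11 probes in these comparisons, beside 10.3%, 8.34%, 1.81% and 11.5% of all probes. The first and last counts include both probe 610717 and probe 5900433 of Ccnd3. By the brightest probe of each of the 7 genes, 1 higher and 1 lower reached it in Terc-/- against Terc+/+. Over the 16110 named genes these were 872 and 882. For both mutant genotypes the counts were 2 and 1 of 7, beside 1013 and 923 of all named genes. All comparisons against Terc+/+ share the same 3 control arrays, and their values are given side by side for that reason.

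**Figure D1:**
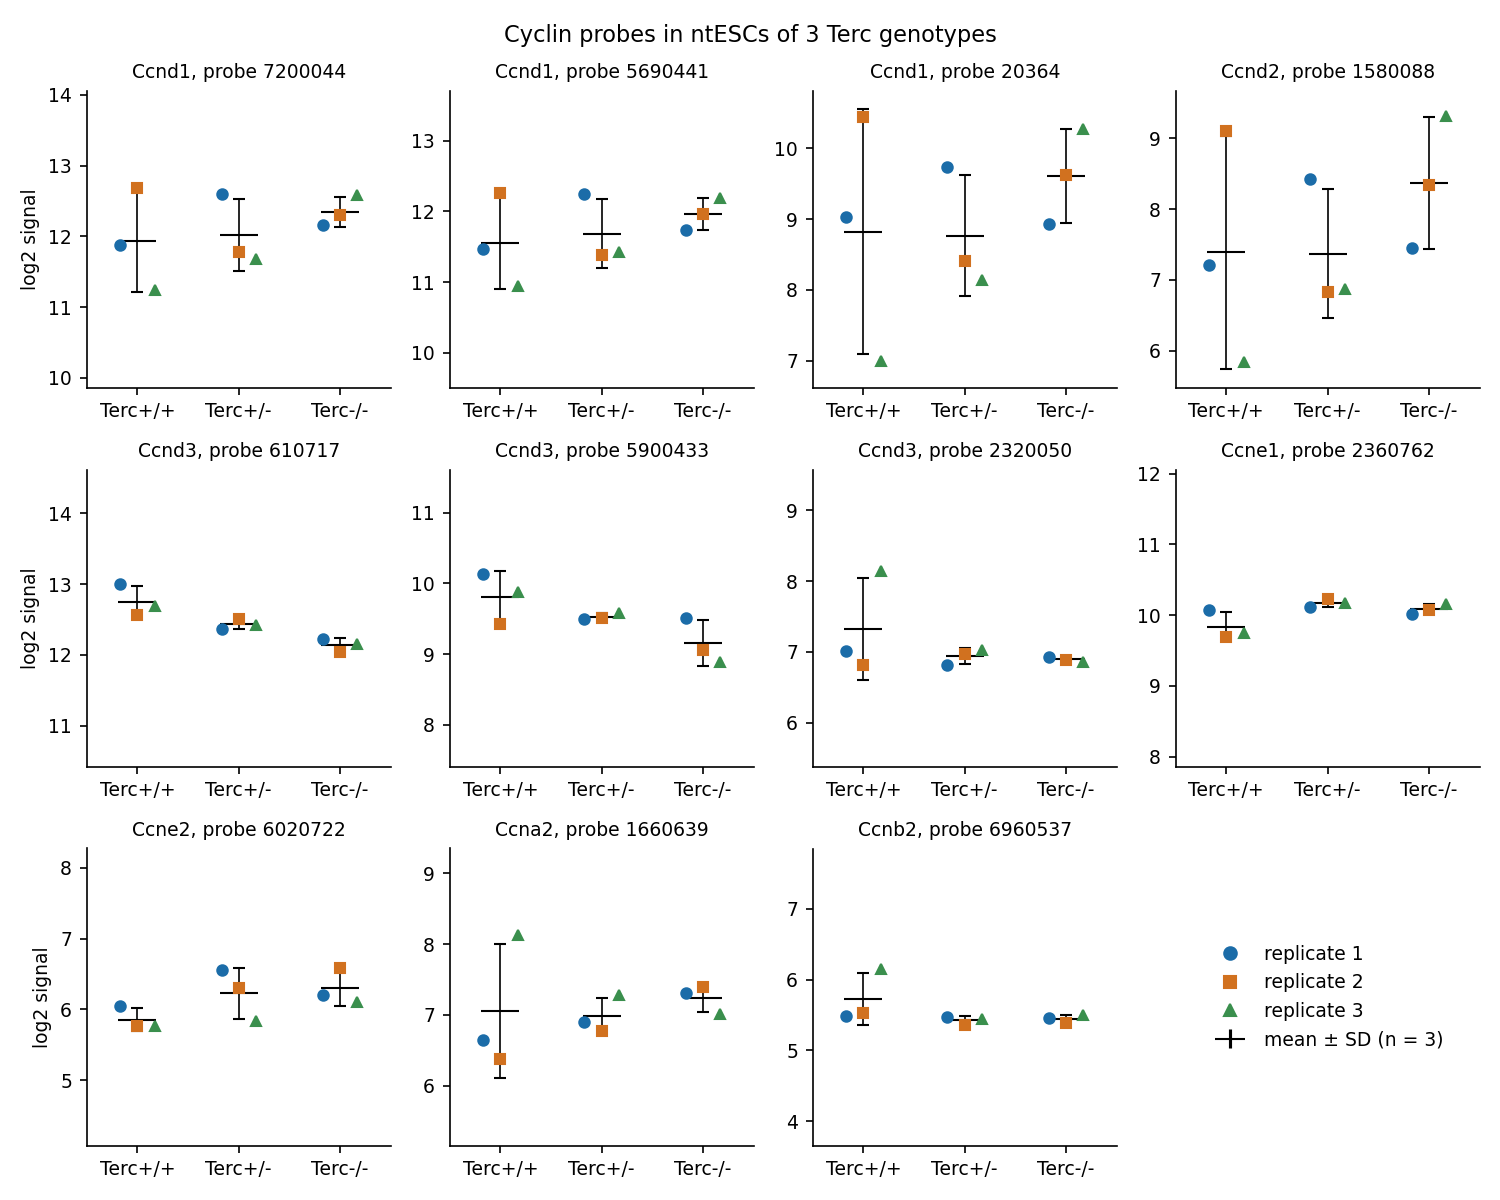
Log2 signal (vertical axis, the same span of 4.2 log2 units in each panel) of each cyclin probe in the 3 Terc genotypes (horizontal axis). Points are single arrays by replicate number, and bars are the mean ± SD of 3 arrays; Ccnd1 and Ccnd2 spread widely within genotypes, whereas probe 610717 of Ccnd3 steps down from Terc+/+ to Terc-/- without overlap.

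Ccnd3 encodes cyclin D3, the D-type cyclin best known from lymphocytes and other differentiating cells. Its brightest probe, 610717, read 13.00, 12.56 and 12.70 in Terc+/+ replicates 1, 2 and 3, 12.37, 12.51 and 12.42 in Terc+/-, and 12.23, 12.04 and 12.16 in Terc-/-. The Terc+/+ arrays were all above the Terc+/- arrays, and these were all above the Terc-/- arrays. Means were 12.75 ± 0.22, 12.44 ± 0.07 and 12.14 ± 0.09 (SD, n = 3). Terc-/- was lower than Terc+/+ by 0.61 on the log2 scale, which is 1.53-fold (log2 fold change -0.61, SE 0.11, 95% interval -0.87 to -0.35, adjusted p = 0.122). In rank by p this probe was number 139 of 25697, which is the top 0.541%. Without overlap and lower, Terc-/- against Terc+/+, stood 1 of the 11 cyclin probes, beside 7.80% of all probes. Terc+/- differed from Terc+/+ by -0.32 (SE 0.11, adjusted p = 0.487) and Terc-/- from Terc+/- by -0.29 (SE 0.11, adjusted p = 1.00), without overlap in either case, beside 5.43% and 4.22% of all probes that stood lower so. The first of these was -0.19 without Terc+/+ replicate 1 and -0.50 with array weights (adjusted p = 0.0437, from a range up to 0.897 over the alternatives). Both mutant genotypes together differed from Terc+/+ by -0.46 (SE 0.10, adjusted p = 0.115), where 2.92% of all probes stood lower without overlap.

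The second Ccnd3 probe, 5900433, read 10.13, 9.43 and 9.88 in Terc+/+, 9.50, 9.51 and 9.58 in Terc+/-, and 9.51, 9.06 and 8.89 in Terc-/-. Its means stood in the same order as those of the brightest probe, but Terc+/+ replicate 2 lay below all Terc+/- arrays and below 1 Terc-/- array. The difference between Terc-/- and Terc+/+ was -0.66 (SE 0.20, 95% interval -1.13 to -0.20, adjusted p = 0.294). The third, dimmer probe, 2320050, stayed between 6.81 and 7.03 on 8 arrays and read 8.14 in Terc+/+ replicate 3. Its difference of -0.43 (SE 0.30, adjusted p = 0.714) was -0.014 without that array. With array weights, a setting that gave Terc+/+ replicate 1 a weight of 6.74 and replicate 3 one of 0.212, both brighter probes passed in Terc-/- against Terc+/+ (-0.85, adjusted p = 0.00267, and -0.95, adjusted p = 0.00779), where 3845 of all probes were called. Over all alternatives the adjusted p for probe 610717 in this comparison ran from 0.00267 to 0.445 and the difference from -0.85 to -0.49, and the adjusted p for probe 5900433 from 0.00779 to 0.677. All 3 probes are annotated to the same transcript accession, so they are not independent measurements of it.

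The bases before a Ccnd3 start are shown because the gene had the smallest p of the set. The set of promoters used here (RefSeq, GRCm38.p6) held 3 of the 7 measured genes, among them 2 starts of Ccnd3. That the other measured genes are missing is a limit of this set and not a statement about RefSeq. Nothing in the sources used here ties a probe to one of the Ccnd3 starts. Windows of 250 bases before to 50 after a start were searched on both strands for the letters of the CCAAT box (CCAAT), the core of the cyclic AMP response element (TGACGT), the GC box (GGGCGG), the cell cycle homology region (CHR, TTTGAA) and E2F sites (TTTCCCGC, TTTCGCGC, TTTGCCGC, TTTGGCGC). No match overlapped another in the cyclin promoters. The window of the second start, printed here as the 250 bases before it (chr17:47593217-47593466, plus strand), held 1 CCAAT box, 1 response element core and 2 GC boxes, 1 of them after the start, and the capitals mark the matches.
Ccnd3, second start: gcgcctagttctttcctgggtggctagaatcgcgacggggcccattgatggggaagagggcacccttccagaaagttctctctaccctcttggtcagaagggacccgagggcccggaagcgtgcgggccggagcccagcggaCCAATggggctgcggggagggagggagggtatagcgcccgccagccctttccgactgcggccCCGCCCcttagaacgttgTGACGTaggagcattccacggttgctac
The other Ccnd3 start held 2 GC boxes and no other match. Among all 32851 promoters of these lengths, 37.4% held a CCAAT box, 7.51% the response element core and 35.7% a GC box, with 19.5% holding 2 or more GC boxes. Such matches describe letters, not binding.

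Ccne1 and Ccne2 encode cyclin E1 and cyclin E2, the partners of Cdk2. Ccne1 read 10.07, 9.69 and 9.75 in Terc+/+, 10.12, 10.23 and 10.17 in Terc+/-, and 10.02, 10.07 and 10.16 in Terc-/-. All Terc+/- arrays were above all Terc+/+ arrays, while Terc+/+ replicate 1 fell among the Terc-/- arrays. Means were 9.84 ± 0.21, 10.17 ± 0.06 and 10.09 ± 0.07 (SD, n = 3). The difference was 0.34 in Terc+/- against Terc+/+ (SE 0.11, 95% interval 0.094 to 0.58, adjusted p = 0.405) and 0.25 in Terc-/- against Terc+/+ (SE 0.11, adjusted p = 0.467). With array weights these were 0.15 and 0.048, and with single arrays left out they ran from 0.26 to 0.45 and from 0.17 to 0.37. The mutant genotypes differed by -0.088 (SE 0.11, adjusted p = 1.00). Ccne1 was the narrowest of the cyclin probes, with a range of 0.55 log2 units over the 9 arrays. Without overlap and higher, Terc+/- against Terc+/+, stood only this probe of the 11, beside 6.81% of all probes.

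The 250 bases before the Ccne1 start (chr7:38107491-38107740, minus strand) are shown with the matches in capitals. They held 4 GC boxes and none of the other motifs searched, and 5.49% of all promoters held 4 or more GC boxes.
Ccne1: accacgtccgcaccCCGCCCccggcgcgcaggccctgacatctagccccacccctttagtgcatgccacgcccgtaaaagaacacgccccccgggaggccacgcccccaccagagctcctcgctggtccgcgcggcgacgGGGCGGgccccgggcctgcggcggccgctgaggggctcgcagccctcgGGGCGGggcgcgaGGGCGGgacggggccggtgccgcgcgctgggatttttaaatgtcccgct
E2F sites of these letters were in 2.26% of all promoters, and in none of those of Ccnd3, Ccne1 and Ccnb2.

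Ccne2 lay near the lower end of the scale. It read 6.04, 5.77 and 5.76 in Terc+/+, 6.55, 6.29 and 5.84 in Terc+/-, and 6.21, 6.59 and 6.11 in Terc-/-. The Terc-/- arrays were all above the Terc+/+ arrays, and 1 Terc+/- array fell among these. The differences from Terc+/+ were 0.44 in Terc-/- (SE 0.20, 95% interval -0.0093 to 0.90, adjusted p = 0.494) and 0.37 in Terc+/- (SE 0.20, adjusted p = 0.700). The latter was 0.21 with array weights or when Terc+/- replicate 1 was left out, and 0.57 when its replicate 3 was. It was the 1 cyclin probe of 11 that stood higher in Terc-/- than in Terc+/+ without overlap, beside 6.99% of all probes.

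Ccna2 encodes cyclin A2. Its probe read 6.65, 6.37 and 8.13 in Terc+/+, 6.89, 6.78 and 7.28 in Terc+/-, and 7.31, 7.40 and 7.01 in Terc-/-. Terc+/+ held both the highest array, replicate 3, and the lowest ones, replicates 2 and 1, so its SD of 0.95 was larger than those of 0.26 in Terc+/- and 0.20 in Terc-/-. The difference between Terc-/- and Terc+/+ was 0.19 (SE 0.41, 95% interval -0.76 to 1.14, adjusted p = 0.929). Without Terc+/+ replicate 3 it was 0.73 (adjusted p = 0.0931), and that of Terc+/- against Terc+/+ moved from -0.067 (SE 0.41) to 0.47 (adjusted p = 0.301). Over all alternatives the adjusted p for Terc-/- against Terc+/+ ran from 0.0529 to 0.999 and the difference from -0.15 to 0.73.

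Ccnb2 encodes cyclin B2, a partner of Cdk1 in mitosis. It read 5.49, 5.53 and 6.15 in Terc+/+, 5.47, 5.36 and 5.44 in Terc+/-, and 5.45, 5.39 and 5.50 in Terc-/-. Every value but that of Terc+/+ replicate 3 lay below the median of all probes, and 8 arrays spanned 5.36 to 5.53. The probe therefore says little on cyclin B2, also on that array, where 6.15 was close to the median of 5.94. The difference of Terc-/- from Terc+/+ was -0.27 (SE 0.16, adjusted p = 0.647), and -0.060 without replicate 3. In Terc+/- against Terc+/+ it was -0.30 (SE 0.16, adjusted p = 0.705), with no overlap, as for probe 610717 of Ccnd3: 2 of 11 probes stood lower there without overlap, beside 5.43% of all probes. Without Terc+/+ replicate 3 this difference of Ccnb2 was -0.086.

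The 250 bases before the Ccnb2 start (chr9:70421555-70421804, minus strand) are shown because B-type cyclin promoters are textbook cases of CCAAT boxes close to the start. They held 3 CCAAT boxes, the first bases of which lay 87, 54 and 21 bases before the start, and 1 CHR match at 167 bases; a second CHR match and 1 GC box began 5 and 20 bases into the transcribed part, which is not printed.
Ccnb2: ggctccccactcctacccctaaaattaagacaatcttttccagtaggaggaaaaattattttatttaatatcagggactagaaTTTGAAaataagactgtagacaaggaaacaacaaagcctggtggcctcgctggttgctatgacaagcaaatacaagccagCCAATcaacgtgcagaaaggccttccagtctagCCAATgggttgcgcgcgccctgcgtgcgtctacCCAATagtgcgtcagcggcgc
Among all promoters, 3.37% held 3 or more CCAAT boxes and 2.31% held 2 or more CHR matches.

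**Figure D2:**
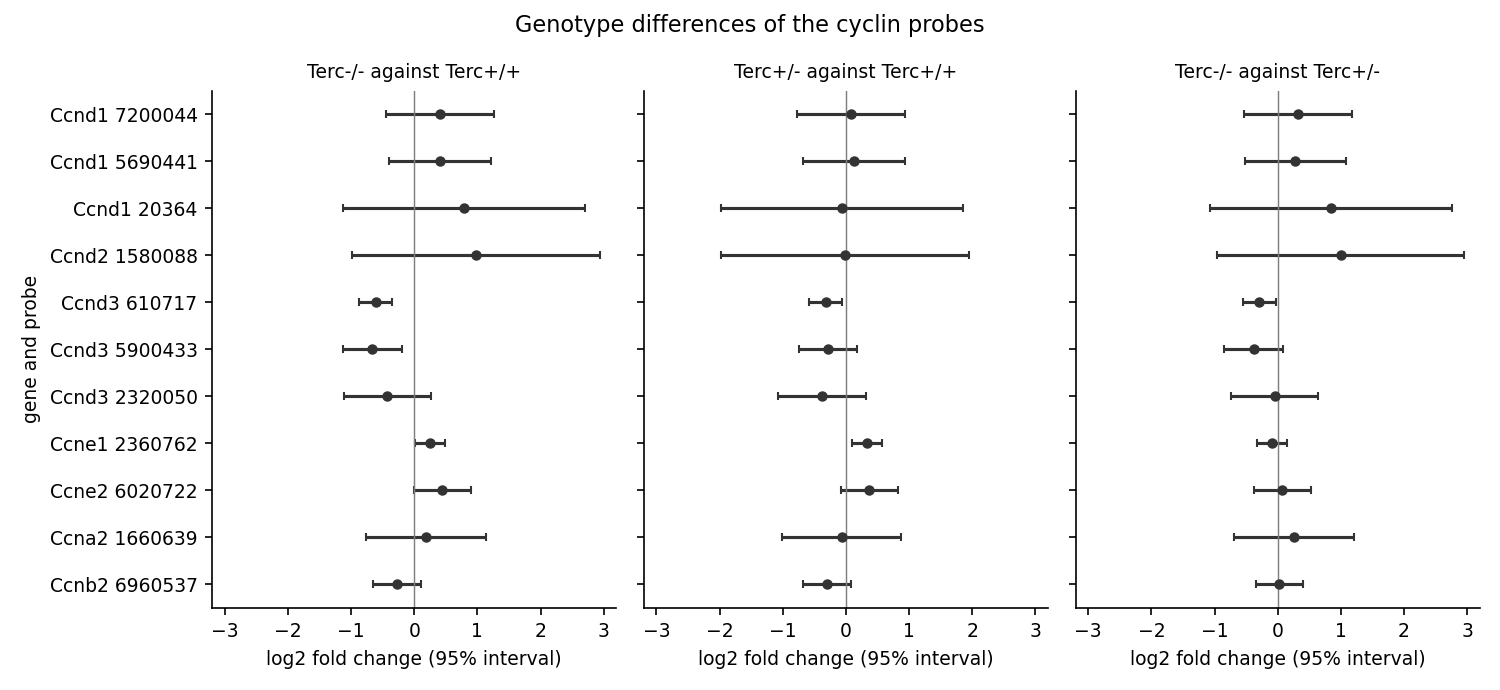
Log2 fold changes (horizontal axis) of the 11 cyclin probes (vertical axis) in the 3 pairwise comparisons, with 95% intervals from the limma fit. The intervals of Ccnd1 and Ccnd2 are wide, up to -0.98 to 2.94 for Ccnd2 in Terc-/- against Terc+/+, and that of Ccnd3 probe 610717 lies from -0.87 to -0.35 there.

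Ccnd1 and Ccnd2, which encode cyclins D1 and D2, the D-type cyclins that growth factors induce in many cells, varied more between arrays of 1 genotype than between genotypes. Ccnd2 read 7.21, 9.11 and 5.84 in Terc+/+, 8.42, 6.82 and 6.87 in Terc+/-, and 7.46, 8.34 and 9.31 in Terc-/-. Its range over the 9 arrays was 3.47 log2 units, with a lowest value under the median of all probes, and Terc+/+ alone held both the lowest and the second highest array. Means were 7.39 ± 1.64, 7.37 ± 0.91 and 8.37 ± 0.93 (SD, n = 3), and Terc-/- differed from Terc+/+ by 0.98 (SE 0.85, adjusted p = 0.776).

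The brightest Ccnd1 probe, 7200044, read 11.88, 12.68 and 11.24 in Terc+/+, 12.60, 11.77 and 11.68 in Terc+/-, and 12.16, 12.30 and 12.58 in Terc-/-. Terc+/+ replicate 2 was the highest and replicate 3 the lowest of all arrays, and the genotypes overlapped. The difference between Terc-/- and Terc+/+ was 0.41 (SE 0.37, 95% interval -0.45 to 1.27, adjusted p = 0.788). The other probes, 5690441 and 20364, gave 0.41 (SE 0.35) and 0.79 (SE 0.83). Probe 20364 ranged 10.9-fold over the arrays and the brighter probes 2.72-fold and 2.49-fold; the 3 probes share 1 transcript accession. Terc+/- against Terc+/+ gave 0.085, 0.13 and -0.057 for probes 7200044, 5690441 and 20364. Without Terc+/+ replicate 3, the values for Terc-/- against Terc+/+ were 0.064, 0.10 and -0.13, and 0.21 for Ccnd2; without Terc+/+ replicate 2 that of Ccnd2 was 1.84. Leaving out single arrays moved the values for Terc+/- against Terc+/+ from -0.26 to 0.46 for probe 7200044, from -0.18 to 0.48 for 5690441, from -0.97 to 0.75 for 20364 and from -0.79 to 0.84 for Ccnd2, with the lower end without Terc+/+ replicate 3 and the upper end without Terc+/+ replicate 2.

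The levels of Ccnd1 and Ccnd2 followed the fibroblast score. All probes were fitted with genotype and score as terms, and the p-values of the slopes were adjusted over the probes outside the marker list. Of the 11 cyclin probes 4 had a slope with an adjusted p under 0.05, all positive: the 3 probes of Ccnd1 and that of Ccnd2. Among all 25641 probes so tested 8.90% were called, 4.79% with a positive slope. Per unit of score, a doubling of the mean marker signal, Ccnd2 was higher by 1.26 (SE 0.12, adjusted p = 0.00123) and Ccnd1 by 0.54 with probe 7200044 (SE 0.06, adjusted p = 0.00253), 0.51 with 5690441 and 1.21 with 20364. All 4 kept an adjusted p under 0.05 without any 1 of the 9 arrays, with slopes for Ccnd2 from 1.08 to 1.43. The residual SD of Ccnd2 within genotypes was 1.21 without the score and 0.33 with it, and that of Ccnd1 probe 7200044 was 0.52 and 0.15. In bulk RNA of such cultures, fewer cells of a type and less RNA per cell cannot be told apart. Whether remaining feeder cells, differentiating cells or the stem cells themselves made these transcripts was not tested.

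**Figure D3:**
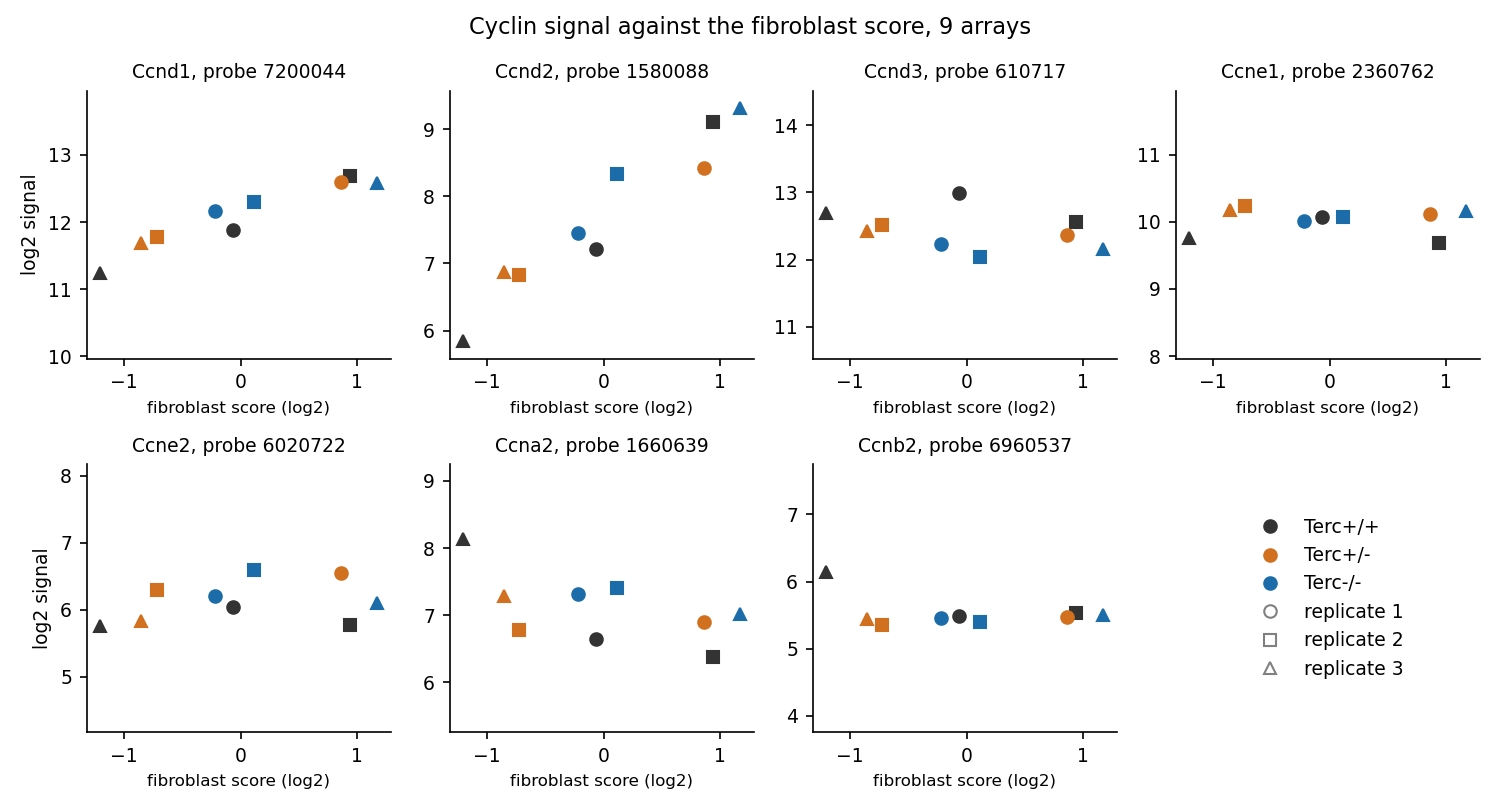
Log2 signal (vertical axis, 4 log2 units in each panel) of the brightest probe of each measured cyclin gene against the fibroblast score of the array (horizontal axis), coloured by genotype and shaped by replicate. Ccnd1 and Ccnd2 rise along the score, with slopes of 0.54 and 1.26 that the fit took as common to the genotypes. Ccna2 and Ccnb2 are set apart by 1 array, Terc+/+ replicate 3.

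The other cyclins had no called slope. The values were -0.046 for Ccnd3 probe 610717 (SE 0.06), -0.0084 for Ccne1 (SE 0.06), 0.079 for Ccne2 (SE 0.10), -0.46 for Ccna2 (SE 0.16, adjusted p = 0.120) and -0.11 for Ccnb2 (SE 0.08). Without Terc+/+ replicate 3 the slope of Ccna2 was -0.17 (adjusted p = 0.314), and without Terc+/- replicate 1 it was -0.66 and called (adjusted p = 0.0469), the lowest of adjusted p-values that reached 0.427 over the alternatives. With the score in the model, the difference of Terc-/- from Terc+/+ was -0.59 for Ccnd3 probe 610717 (SE 0.12, adjusted p = 0.077), 0.39 for Ccnd2 (SE 0.23, adjusted p = 0.539) and 0.16 for Ccnd1 probe 7200044 (SE 0.12, adjusted p = 0.653). None of the 11 passed in any comparison in that model, where 154 probes were called in Terc-/- against Terc+/+.

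Across the 9 arrays the genes most like each cyclin differed by member. Likeness was Pearson's r over the 9 arrays between brightest probes, among 5889 or 5890 genes with a mean above 7, and is a description that shares the array effects above. For Ccnd1 they were Igf2 (0.984), Mfap5 (0.981) and Axl (0.979), and for Ccnd2 Cavin2 (0.988), Acta2 (0.986), itself a fibroblast marker of the list, and Gsto1 (0.985). For Ccnd3 they were Rab21 (0.946), Haus8 (0.944) and Rad9a (0.941), for Ccne1 Stard7 (0.937), Mex3a (0.925) and Dnajc2 (0.924), and for Ccne2 Kif2a (0.921), Enox1 (0.915) and Slc7a3 (0.908). For Ccna2 they were Elf2 (0.989), Zcrb1 (0.987) and Prps2 (0.986), and for Ccnb2 Rras (0.986), Flot2 (0.984) and Cbr3 (0.976); both members owe their spread mainly to Terc+/+ replicate 3.

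The kinases, inhibitors and regulators around the cyclins were described from lists of the pathway. In Terc-/- against Terc+/+, 0 of 7 measured CDKs and CDK subunits, 0 of 7 CDK inhibitors, 0 of 5 CDK phosphatases and inhibitory kinases, 0 of 16 pocket protein, E2F and DREAM genes, 0 of 22 cyclin ubiquitin ligase genes, 0 of 21 mitotic genes and 0 of 11 other cyclins passed, and none did in the other comparisons. Their median log2 fold changes were -0.077, -0.15, -0.022, -0.053, 0.12, -0.039 and -0.092, beside 0.0053 over all 16110 named genes and 0.25 over the 7 measured cyclins of the set. Cdk2, the partner of cyclins E and A, read 11.48 ± 0.07, 11.48 ± 0.02 and 11.55 ± 0.22 in Terc+/+, Terc+/- and Terc-/- (SD, n = 3). Cdk1, the partner of B-type cyclins, gave 0.25 in Terc-/- against Terc+/+ (SE 0.19), Cdk6, near the lower end of the scale, -0.10 (SE 0.10), Rb1, the substrate of the D-type cyclin kinases, -0.079 (SE 0.29) and E2f1, a transcription factor that it restrains, -0.14 (SE 0.13).

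The smallest p-values among these lists were those of Anapc4 and Fbxw7. Anapc4 encodes a subunit of the anaphase-promoting complex, the ubiquitin ligase that marks cyclins A and B for destruction. It read 9.11, 9.00 and 8.79 in Terc+/+, 9.68, 9.31 and 9.45 in Terc+/-, and 9.60, 9.55 and 9.48 in Terc-/-. All mutant arrays were above all Terc+/+ arrays, with 0.58 in Terc-/- against Terc+/+ (SE 0.12, adjusted p = 0.139) and 0.54 for both mutant genotypes (SE 0.10, adjusted p = 0.0875). Fbxw7 encodes the F-box protein that targets cyclin E. It read 8.60, 8.52 and 7.98 in Terc+/+, 8.63, 8.55 and 9.09 in Terc+/-, and 9.03, 9.59 and 9.16 in Terc-/-, with 0.90 in Terc-/- against Terc+/+ (SE 0.22, adjusted p = 0.206). In Terc-/- against Terc+/+ 7 of the 22 ubiquitin ligase genes stood higher without overlap and 0 lower, beside 6.99% and 7.80% of all probes. The counts higher and lower were 1 and 1 of 16 pocket protein, E2F and DREAM genes, 2 and 0 of 21 mitotic genes, 1 and 1 of 11 other cyclins, 0 and 1 of 7 CDK inhibitors, 0 and 0 of 7 CDKs and 0 and 0 of 5 phosphatases and inhibitory kinases. These counts take the brightest probe of each gene, whereas the shares are over all probes. In Terc+/- against Terc+/+ 2 of the 22 ubiquitin ligase genes stood higher without overlap, beside 6.81% of all probes. The count higher was 1 of 22 in Terc-/- against Terc+/- and 2 of 22 in both mutant genotypes against Terc+/+. The shares of all probes that stood higher in these last comparisons are not given here, so these counts cannot be set against them. In Terc+/- against Terc+/+, Terc-/- against Terc+/- and both mutant genotypes against Terc+/+, 0 of 22 stood lower, beside 5.43%, 4.22% and 2.92% of all probes.

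The smallest p-values of the other lists belonged to genes that did not pass either. Among pocket protein, E2F and DREAM genes they were those of E2f2 (0.66, SE 0.20, adjusted p = 0.273) and Tfdp2, a partner of E2F proteins (0.43, SE 0.22). Cyclin F, Ccnf, which is in the lists of other cyclins and of mitotic genes, gave 0.42 (SE 0.15, adjusted p = 0.361), Ccnt1, the cyclin of the elongation factor P-TEFb, -0.27 (SE 0.13), and Top2a, topoisomerase II alpha, 0.66 (SE 0.27, adjusted p = 0.460). Mnat1, a subunit of the CDK-activating kinase, gave 0.33 (SE 0.23). Among the inhibitors Cdkn2d gave -0.35 (SE 0.17), Cdkn2c -0.14 (SE 0.12), Cdkn1b, which encodes p27, -0.15 (SE 0.19), and Cdkn1a -0.16 (SE 0.43). The phosphatase gene Cdc25a gave 0.64 (SE 0.39), and Pkmyt1, whose kinase inhibits Cdk1, -0.35 (SE 0.23).

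Slopes on the fibroblast score were also read for the pathway lists. Of the 7 CDK inhibitors 3 had a called positive slope: Cdkn1a, which encodes p21 (0.64, SE 0.05, adjusted p = 0.000755), Cdkn2a (0.96, SE 0.15, adjusted p = 0.00880) and Cdkn2b (0.47, SE 0.10, adjusted p = 0.0274). Which cells made these transcripts was not tested. Of the 21 mitotic genes 0 had a called positive slope and 4 a negative one: Plk1 (-0.33, SE 0.05, adjusted p = 0.00550), Cenpa (-0.35), Nusap1 (-0.45) and Ttk (-0.28). Called negative slopes were also found for 2 of 16 pocket protein, E2F and DREAM genes, Tfdp2 (-0.30) and Lin54 (-0.34), for 1 of 5 phosphatases and inhibitory kinases, Pkmyt1 (-0.33), and for 1 of 22 ubiquitin ligase genes, Ube2s (-0.48). The other cyclins had 1 called slope each way of 11, Ccng1 (0.55) and Ccng2 (-0.58), and the CDKs 0 of 7. Over all named genes outside the marker list, 5.08% had a called positive and 4.63% a called negative slope. Median slopes were 0.27 for the CDK inhibitors, -0.028 for the mitotic genes, -0.0084 for the 7 measured cyclins and -0.012 for all these genes. Cdkn1a read 11.32, 11.85 and 10.53 in Terc+/+, 11.44, 10.45 and 10.35 in Terc+/-, and 10.84, 10.69 and 11.69 in Terc-/-; like Ccnd1 and Ccnd2, it was high in Terc+/+ replicate 2, Terc+/- replicate 1 and Terc-/- replicate 3.

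**Figure D4:**
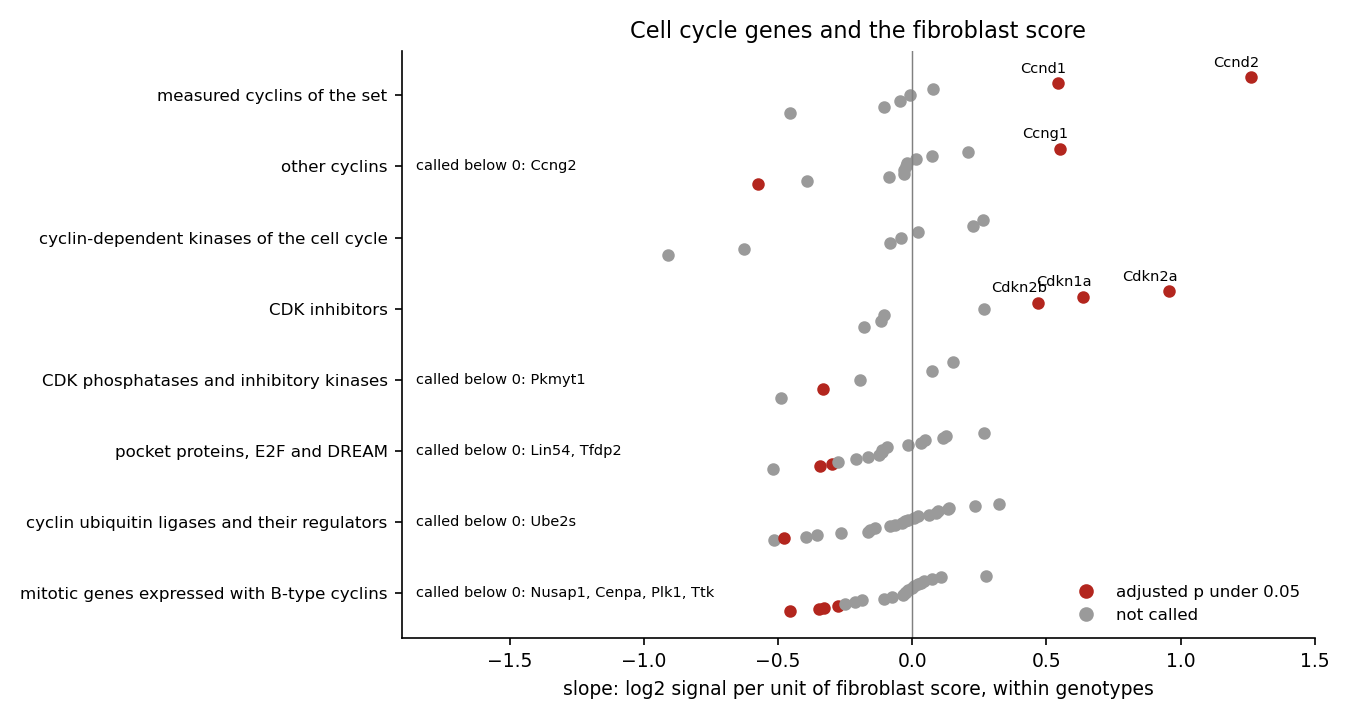
Slope of log2 signal per unit of fibroblast score within genotypes (horizontal axis) for the measured cyclins and the genes of 7 pathway lists (vertical axis, 1 point a gene by its brightest probe). Red points have an adjusted p under 0.05: Ccnd1, Ccnd2, Ccng1 and 3 CDK inhibitors lie above 0, and Ccng2, Pkmyt1, Tfdp2, Lin54, Ube2s and 4 mitotic genes lie below 0.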

How the data were processed

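Total RNA of 9 ntESC samples was hybridised to bead arrays, per the labels' protocols. The log2 values analysed are those that the authors deposited in the series value table. Their processing is not given in the sources used here; all columns have one maximum and nearly equal distributions (medians from 5.9396 to 5.9421), close to what quantile normalization gives. The scale was read from the values: the highest is a signal of 28834.7 in base 2, but 2718301 in the natural base, above what a scanner gives. A table of raw signals has 18 columns named by chip position that match no sample label and were not used here, so no background correction, detection filter or chip block was run.

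Of 25697 probes, 23141 had 1 gene symbol, 0 several and 2556 none; all 23141 matched RefSeq genes (GRCm38.p6) by Entrez identifier. The build behind the probes is not given in the sources used here. All probes were fitted in 1 model of 3 genotypes by limma 3.58.1 under R 4.3.3 with moderated variances (6 residual and 2.08 prior degrees of freedom), without a filter, and p-values were adjusted by Benjamini-Hochberg over all probes of a comparison, two-sided, with calls under 0.05. The number of arrays limits precision: the median SE over all probes was 0.11 in Terc-/- against Terc+/+. For the cyclin probes the SE there ran from 0.11 for Ccne1 to 0.85 for Ccnd2. Each list gene was read from its brightest probe. Genes that could be named were all members, fixed partners (Cdk1, Cdk2, Cdk4, Cdk6, Cdkn1a, Cdkn1b, Rb1, E2f1; Cdk4 had no probe), the 2 smallest p-values of a list in a comparison (given for Terc-/- against Terc+/+), called genes, and the 3 most correlated genes of each member. The fit was tested on simulated data, but the outcome is not given here and lends the results no support. Members and lists were chosen with earlier results of these data known. Alternatives were 1 probe per gene, median centring, cyclic loess, a mean above 6, trend and robust variance, array weights, compared genotypes only, the fibroblast score as a covariate, a replicate block and leaving out each array.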

Additional observations from a re-analysis of the deposited data

How the results depend on the processing

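Of 761 values of cyclin probes under the alternatives, 722 kept their direction without a call, 34 changed direction without a call, 5 were called in the same direction and 0 were called in the other. All 5 were Ccnd3 with array weights, where 2, 1, 0 and 2 cyclin probes were called in Terc-/- against Terc+/+, Terc+/- against Terc+/+, Terc-/- against Terc+/- and both mutant genotypes against Terc+/+, and 3845, 751, 0 and 4326 of all probes. The number called was 0 to 0 of the cyclin probes in all comparisons when single arrays were left out, and 4 to 5 for slopes on the fibroblast score.

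Counts over all probes moved more. In Terc-/- against Terc+/+ the 10 calls became 154 with the fibroblast score, 367 without Terc+/+ replicate 3, 4 when Terc+/- replicate 1 was left out, and 0 for any other single array, with cyclic loess, a mean above 6, trend and robust variance or the compared genotypes only. In Terc+/- against Terc+/+ the 0 calls became 224 with the score and 28 without Terc+/+ replicate 3. For both mutant genotypes the 38 became 655 with the score, 544 without Terc+/+ replicate 3, 61 with cyclic loess, and 0 for any other single array left out, with a mean above 6 or with trend and robust variance. The 2281 called slopes became 884 when Terc+/+ replicate 2 was left out; leaving out Terc+/- replicate 3 gave 1459, and leaving out replicates 1 and 3 of Terc-/- gave 1365 and 1160. The cause was not tested. Of 504 list medians 19 moved by more than the typical residual SD, at most by 0.32.

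Same-numbered arrays of different genotypes had correlations of their deviations between -0.60 and 0.45, and differently numbered ones between -0.50 and 0.71. Deviations from a mean of 3 arrays are tied to one another, so these correlations cannot decide whether the replicate numbers pair the arrays. With the replicate number as a block 0 cyclin probes and 0 of all probes were called in every comparison, and Ccnd3 probe 610717 gave -0.61 (adjusted p = 0.268) in Terc-/- against Terc+/+. Ccnb2 has no value in the setting with a mean above 6. Background correction and the chip as a block were not run, since the raw columns match no sample. Probes near the lower end of the scale, Ccnb2 and Ccne2, limit what can be seen of these genes.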
